A study of Homo sapiens with 4 samples.

Results

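The genes described here are 37 genes of the lysosome and of autophagy, out of 18417 genes that a probe set with a single symbol represented on the arrays. They were chosen by name, with no measured value in the rule but with earlier results of these data known, and where a gene had several probe sets the brightest one, averaged over the 4 arrays, was used. The RNA was from Caco-2, a long-used cell line from a human colorectal adenocarcinoma whose confluent cultures come to resemble absorptive enterocytes. There were 4 groups with 1 array each, and each array was hybridised with RNA pooled from 3 samples: regular 6-well plates with vehicle, regular plates with 2 mM cholate (the sodium salt of cholic acid, a primary bile acid), collagen-coated Transwell inserts with vehicle, and inserts with 2 mM cholate in the apical compartment. All 4 groups were incubated for 3 h. A Transwell insert is a porous membrane that gives the cells separate apical and basolateral sides. Differentiation is labelled as 21 days for all groups, but the growth protocol has plates used at 14 days and inserts at 14 to 21 days, so culture time and growth support cannot be told apart. Cholate was given in a buffered salt solution lacking calcium, and the composition of the vehicle was not given in the sources used here. The comparisons ask whether these genes differed between the growth supports and whether they differed after cholate.

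Lysosomes are acidic compartments that degrade material delivered by endocytosis and by autophagy. Their soluble hydrolases work at the low pH that the V-ATPase, a proton pump, maintains, and their limiting membrane carries heavily glycosylated proteins and ion channels. In autophagy a membrane encloses cytoplasm, is decorated with lipid-linked proteins of the ATG8 family and fuses with the lysosome. Transcription factors of the MiT/TFE family, among them TFEB and TFE3, are known to activate many lysosomal and autophagy genes through E-box sites of the CLEAR type in promoters, and are controlled mainly through their location in the cell. In absorptive enterocytes, lysosomes also handle protein and lipid taken up from the lumen.

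Promoter sequences are shown because members with and without an exact E-box match are set beside each other in the comparison of supports. The RefSeq promoter table (GRCh38.p14) held sequence for 27 of the 37 genes. In the 250 bases before the annotated start, the E-box CACGTG was found in 7 of the 27, against 6.49% of all 27305 promoters. The longer form TCACGTG, which contains that E-box and was searched on both strands, was found in the same 7 genes (CTSA, CTSD, GAA, NEU1, LAMP1, MCOLN1 and ATP6V0D1), against 3.38% of all promoters. A match describes letters and does not show binding. Similar sites with another letter, and sites after the start, were not counted. The windows below are the 200 bases before the start, on the gene's strand, for the 7 genes with a match and for CTSL, TPP1 and MAP1LC3B, which have large differences in the values and no match. The capitals mark TCACGTG on either strand, so that 8 capitals in a row are a match on both. The windows on the plus strand are chr20:45891135-45891334 for CTSA, chr17:80101381-80101580 for GAA, chr13:113297039-113297238 for LAMP1, chr19:7522424-7522623 for MCOLN1, chr9:87725919-87726118 for CTSL and chr16:87392136-87392335 for MAP1LC3B. Those on the minus strand are chr6:31862822-31863021 for NEU1, chr11:1763928-1764127 for CTSD, chr16:67481158-67481357 for ATP6V0D1 and chr11:6619423-6619622 for TPP1.
NEU1: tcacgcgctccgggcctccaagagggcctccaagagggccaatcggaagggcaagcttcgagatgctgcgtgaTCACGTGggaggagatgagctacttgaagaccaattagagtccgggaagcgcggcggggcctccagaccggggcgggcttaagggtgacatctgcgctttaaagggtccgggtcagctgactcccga
CTSA: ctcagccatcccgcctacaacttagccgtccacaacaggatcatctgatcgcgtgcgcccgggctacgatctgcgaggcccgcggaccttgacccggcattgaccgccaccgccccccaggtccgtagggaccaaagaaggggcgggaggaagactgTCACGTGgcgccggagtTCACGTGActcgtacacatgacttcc
CTSD: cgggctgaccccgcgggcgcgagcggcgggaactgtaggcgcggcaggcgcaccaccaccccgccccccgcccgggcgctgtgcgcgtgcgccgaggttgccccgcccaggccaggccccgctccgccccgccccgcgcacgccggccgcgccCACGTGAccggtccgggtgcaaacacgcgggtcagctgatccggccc
GAA: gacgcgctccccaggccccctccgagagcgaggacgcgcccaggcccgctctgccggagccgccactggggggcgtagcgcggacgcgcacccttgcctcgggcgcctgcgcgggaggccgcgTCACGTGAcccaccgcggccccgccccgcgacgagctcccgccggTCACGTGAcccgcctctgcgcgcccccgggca
LAMP1: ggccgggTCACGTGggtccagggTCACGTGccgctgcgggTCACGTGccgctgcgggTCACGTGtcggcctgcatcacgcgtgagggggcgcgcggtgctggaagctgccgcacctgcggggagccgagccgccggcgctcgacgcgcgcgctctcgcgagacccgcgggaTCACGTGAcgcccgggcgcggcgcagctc
MCOLN1: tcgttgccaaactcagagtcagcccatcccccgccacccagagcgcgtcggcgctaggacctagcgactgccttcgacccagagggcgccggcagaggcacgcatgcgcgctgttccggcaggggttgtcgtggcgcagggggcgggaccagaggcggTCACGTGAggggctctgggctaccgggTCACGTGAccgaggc
ATP6V0D1: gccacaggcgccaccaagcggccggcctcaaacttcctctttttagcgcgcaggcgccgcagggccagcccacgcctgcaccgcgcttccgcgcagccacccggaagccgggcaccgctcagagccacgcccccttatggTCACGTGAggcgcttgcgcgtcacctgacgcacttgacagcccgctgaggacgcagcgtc
CTSL: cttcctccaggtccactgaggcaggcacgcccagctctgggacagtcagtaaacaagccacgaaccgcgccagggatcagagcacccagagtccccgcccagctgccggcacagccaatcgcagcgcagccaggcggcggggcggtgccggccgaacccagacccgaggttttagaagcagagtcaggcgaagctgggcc
TPP1: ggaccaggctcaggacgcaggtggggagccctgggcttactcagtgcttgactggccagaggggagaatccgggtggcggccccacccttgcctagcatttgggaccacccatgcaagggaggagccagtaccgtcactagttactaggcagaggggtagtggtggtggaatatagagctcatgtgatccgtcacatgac
MAP1LC3B: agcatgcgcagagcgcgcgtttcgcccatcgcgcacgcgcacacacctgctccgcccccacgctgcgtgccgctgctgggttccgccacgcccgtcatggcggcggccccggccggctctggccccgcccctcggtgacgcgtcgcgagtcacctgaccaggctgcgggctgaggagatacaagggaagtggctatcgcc

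LAMP1 had the most E-boxes in its window, 5, the farthest beginning 192 bases before the start. GAA, CTSA and MCOLN1 had 2 each, and CTSD, NEU1 and ATP6V0D1 had 1 each. The pair in GAA began 76 and 31 bases before the start, and the pair in MCOLN1 41 and 14 bases before it.

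All values are log2 intensities from RMA, which removes background, brings the arrays to a common distribution and combines each probe set's probes, and a difference of 1 is a 2-fold difference. Medians of the 4 arrays lay between 5.64 and 5.73. A floor was set at the 40th percentile of the probe sets' means, a log2 intensity of 4.84, and 12900 genes with 1 symbol lay above it, among them all 37 members. No condition was measured on another array, so differences between 2 arrays have no replicate check and no p-value. Standard errors (SE) and adjusted p-values come from a limma model of support and treatment across the 4 arrays, whose 1 residual degree of freedom comes from how far the cholate responses on the supports differ, and they do not measure the spread between cultures. None of the 19978 probe sets above the floor passed the limma test at a Benjamini-Hochberg adjusted p of 0.05, for support or for cholate. Unadjusted p was under 0.05 for 4519 and 2162 of them. For the cell type, all 14 measured markers of intestinal epithelium lay above the floor, with the adhesion protein gene EPCAM at 12.69 to 12.79 and the villin gene VIL1 at 11.39 to 11.54. Of 11 leukocyte markers 6 lay above the floor, the brightest being CD68 (8.71 to 9.45) and CD14 (8.39 to 8.79). The leukocyte common antigen gene PTPRC (2.87 to 3.05) and the T cell gene CD3E (3.24 to 3.41) lay below it. Of 9 fibroblast markers 5 lay above the floor, the brightest being the collagen gene COL1A1 (7.57 to 8.15).

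**Figure D1:**
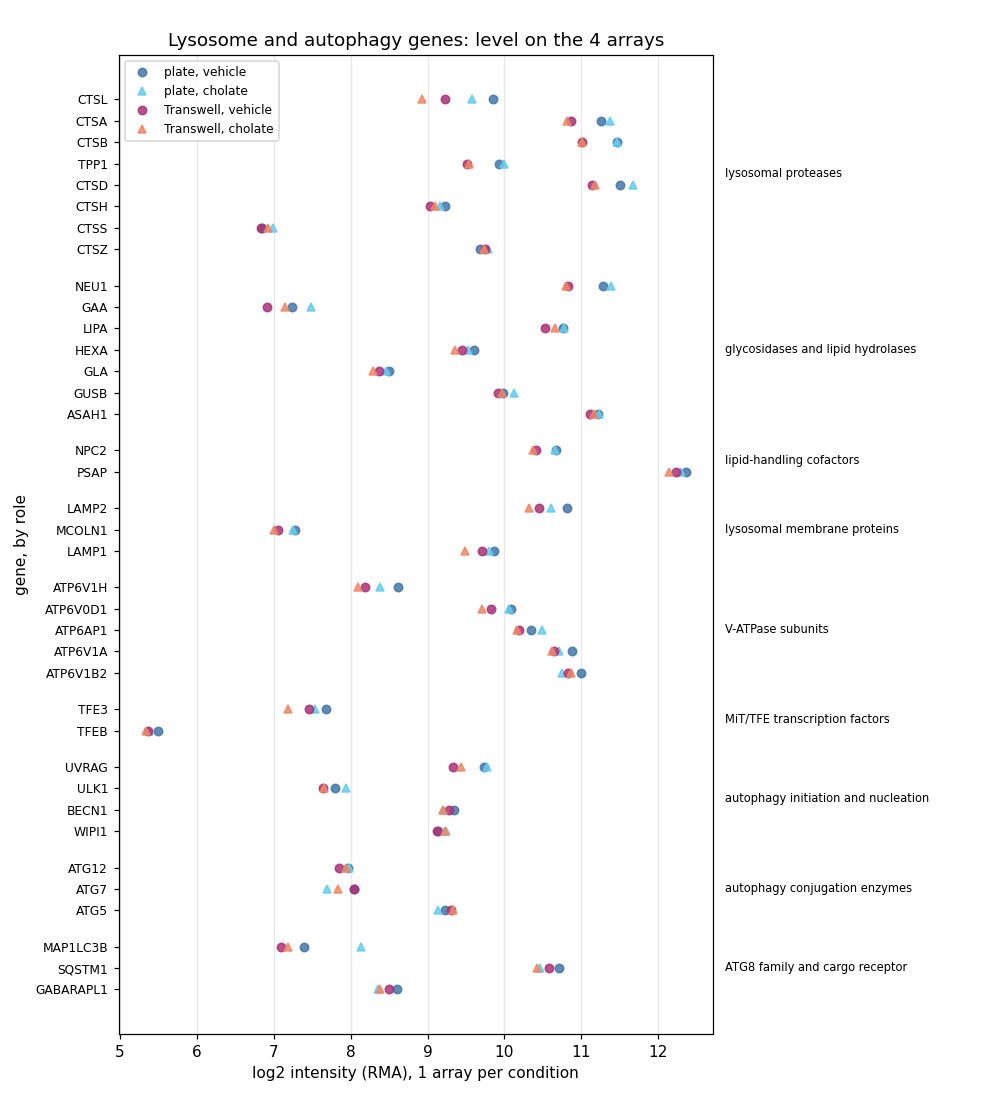
Log2 intensity (horizontal axis) of the 37 lysosome and autophagy genes (vertical axis, grouped by role) on the 4 arrays, 1 point per array. For 28 of the 37 genes both Transwell points lie to the left of both plate points, and for ATG5 both lie to the right. Positions of different genes are not comparable, since probe sets differ in brightness.

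Lysosome and autophagy genes were lower on Transwell than on the plate in most cases. In 28 of 37 genes both Transwell arrays lay below both plate arrays, a pattern found in 24.8% of all genes above the floor, and in 1 gene, ATG5, both lay above, against 31.9%. The pairs of arrays in vehicle and in cholate share no array. In both pairs 32 genes were lower on Transwell (33.2% of all genes) and 2, ATG5 and ATG7, were higher (39.5%). The median difference over the 37 genes was -0.17 log2 in vehicle and -0.18 in cholate, where all genes above the floor had 0.02 in each. Genes whose mean level lay between the members' lower and upper quartile (8.32 to 10.55) had medians of 0.02 and 0.04. The differences were modest in size: 1 gene, CTSL, was at least 1.5-fold lower in vehicle (3.16% of all genes), and 2, CTSL and MAP1LC3B, in cholate (3.75%). None was at least 1.5-fold higher in vehicle (1.93% of all genes) or in cholate (4.02%). Lower by at least 0.32 log2 in both pairs were 8 genes, CTSA, CTSB, CTSD, CTSL, TPP1, GAA, NEU1 and UVRAG (6.06% of all genes above the floor), and 0 were as much higher (5.78%). In bulk RNA, fewer cells with a transcript and less transcript per cell cannot be told apart.

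With limma, 0 members passed over all probe sets, with a smallest adjusted p of 0.110. Unadjusted p was under 0.05 for 14 members, all lower on Transwell, against 10.9% of all genes lower and 13.2% higher. A fit limited to 1 probe set for each of the 12900 genes called 6 members, all lower on Transwell (CTSL, NEU1, CTSA, CTSB, TPP1 and CTSD), where 5.96% of all genes were called lower. With an intensity trend in the variance prior, the fit over all probe sets called CTSL and NEU1, where 1.16% of all genes were called lower.

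**Figure D2:**
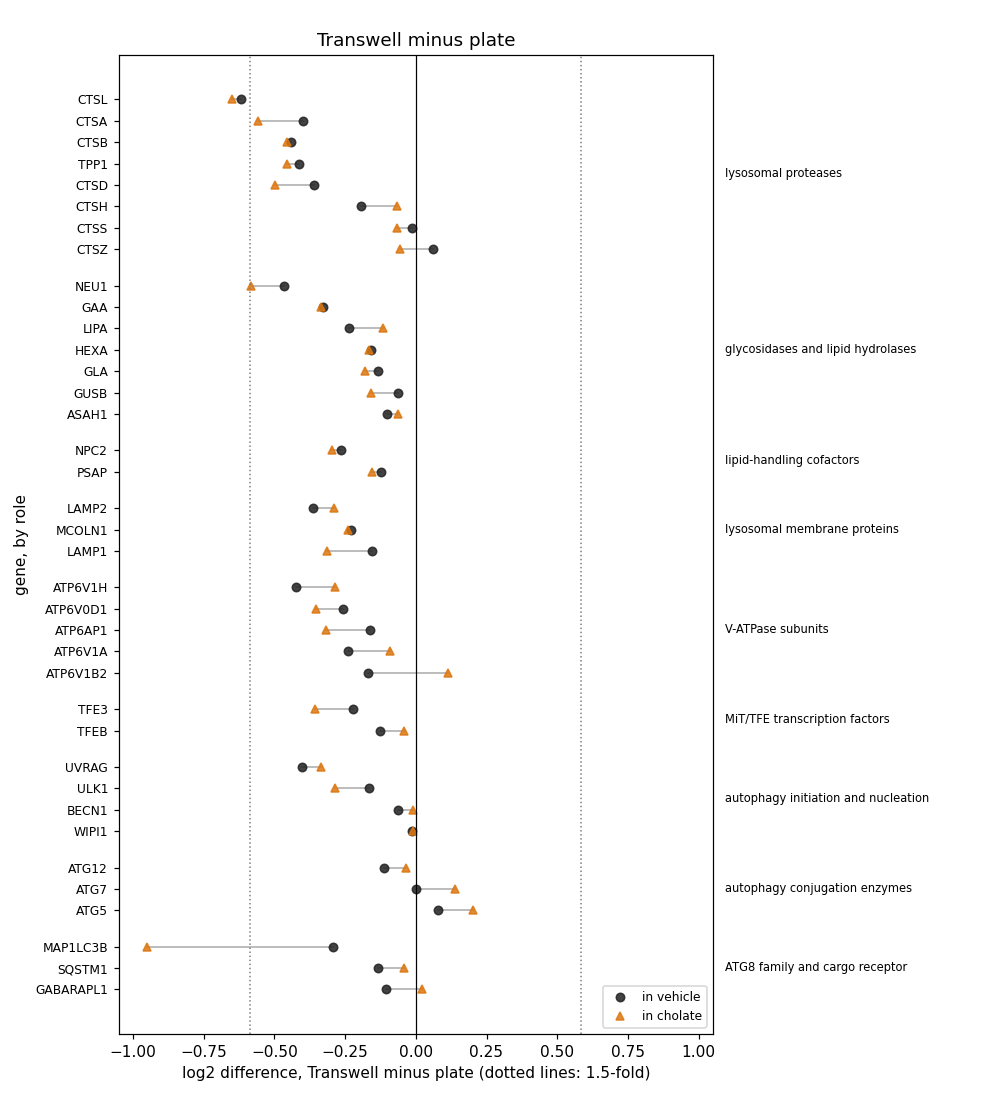
Log2 difference, Transwell minus plate (horizontal axis), for each of the 37 genes (vertical axis, grouped by role), in vehicle (circles) and in cholate (triangles). Each point is a difference of 2 arrays, and dotted lines mark 1.5-fold. Most points lie left of 0, with the proteases CTSL, CTSA, CTSB, TPP1 and CTSD and the sialidase NEU1 between -0.36 and -0.65.

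Among the 8 lysosomal proteases, 7 were lower on Transwell in both pairs (CTSS not under median centring), with medians of -0.38 in vehicle and -0.46 in cholate. CTSL, cathepsin L, a cysteine endopeptidase, read 9.85 in plate vehicle, 9.58 in plate cholate, 9.23 in Transwell vehicle and 8.93 in Transwell cholate. Both Transwell values were below both plate values, and within each support the cholate value was the lower one. The mean Transwell minus plate difference was -0.63 (limma SE 0.09, adjusted p = 0.110), so that the plate level was 1.55-fold the Transwell level. CTSB, cathepsin B, a cysteine protease with endopeptidase and carboxypeptidase activity, read 11.46 and 11.47 on the plate in vehicle and cholate, and 11.02 and 11.01 on Transwell. The plate values were alike and the Transwell values were alike, with no overlap between the pairs, and the mean difference was -0.45 (limma SE 0.09, adjusted p = 0.129).

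CTSA is the serine carboxypeptidase also known as protective protein, which stabilises the sialidase NEU1 and beta-galactosidase in a complex. It read 11.26 in plate vehicle, 11.38 in plate cholate, 10.86 in Transwell vehicle and 10.82 in Transwell cholate. NEU1 itself read 11.29, 11.38, 10.82 and 10.80 in the same order. CTSA and NEU1 were thus both lower on Transwell in either treatment. The mean differences were -0.48 for CTSA (limma SE 0.10, adjusted p = 0.132) and -0.52 for NEU1 (limma SE 0.09, adjusted p = 0.121). The beta-galactosidase gene GLB1, which is not a member, stood at -0.31 in vehicle and -0.44 in cholate. NEU1 had 2 further probe sets, which carry identical values to each other and gave -0.46 in vehicle and -0.60 in cholate.

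TPP1, tripeptidyl peptidase, an exopeptidase that removes tripeptides, read 9.93 and 9.99 on the plate in vehicle and cholate, and 9.52 and 9.53 on Transwell. CTSD, cathepsin D, the main aspartic protease of the lysosome, read 11.50 and 11.67 on the plate and 11.14 and 11.18 on Transwell. The groups of arrays did not overlap in either gene, and the mean differences were -0.43 for both (limma adjusted p = 0.133 for TPP1 and 0.141 for CTSD). The other 3 proteases stayed closer to 0. CTSH, an aminopeptidase, stood at -0.19 in vehicle and -0.07 in cholate, and CTSZ, a carboxypeptidase also called cathepsin X, at 0.06 and -0.06. CTSS, an endopeptidase best known from antigen-presenting cells, read 6.85 in plate vehicle, 6.99 in plate cholate, 6.84 in Transwell vehicle and 6.92 in Transwell cholate, so its supports overlapped.

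All 7 glycosidases and lipid hydrolases were lower on Transwell in both pairs, with medians of -0.16 in vehicle and -0.17 in cholate. After NEU1, the glycogen-degrading alpha-glucosidase gene GAA stood lowest, reading 7.24 in plate vehicle, 7.48 in plate cholate, 6.91 in Transwell vehicle and 7.15 in Transwell cholate. Its Transwell minus plate difference was -0.33 in each treatment. LIPA, the acid lipase that hydrolyses cholesteryl esters and triglycerides, stood at -0.24 and -0.12. HEXA, the alpha subunit of beta-hexosaminidase, stood at -0.16 and -0.17, and GLA, alpha-galactosidase, at -0.13 and -0.18. GUSB, beta-glucuronidase, stood at -0.06 and -0.16, and ASAH1, acid ceramidase, at -0.10 and -0.06. The cofactor genes also read lower on Transwell. NPC2, which binds cholesterol in the lumen, stood at -0.27 and -0.30, and PSAP, the precursor of the saposins that assist sphingolipid hydrolases, at -0.12 and -0.15.

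Membrane proteins of the lysosome were lower on Transwell in 3 of 3 cases. LAMP2, a major membrane glycoprotein, read 10.82 and 10.61 on the plate in vehicle and cholate, and 10.45 and 10.32 on Transwell. LAMP1, its paralogue, read 9.86 and 9.80 on the plate and 9.70 and 9.49 on Transwell. MCOLN1, a cation channel that releases calcium from the lysosome, stood at -0.23 in vehicle and -0.24 in cholate. Plate and Transwell arrays did not overlap in any of these 3 genes.

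Of the 5 V-ATPase genes, 4 were lower on Transwell in both pairs. ATP6V1H, a regulatory subunit of the cytosolic V1 sector, stood at -0.42 and -0.29, and ATP6V0D1, a subunit of the membrane V0 sector, at -0.26 and -0.35. ATP6AP1, an accessory protein of the pump, stood at -0.16 and -0.32, and ATP6V1A, the catalytic subunit, at -0.24 and -0.09. ATP6V1B2, the B subunit of most tissues, read 11.00 in plate vehicle, 10.75 in plate cholate, 10.83 in Transwell vehicle and 10.86 in Transwell cholate. Plate vehicle was its highest array and plate cholate its lowest, with both Transwell values between them.

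The genes of the transcription factors were both lower on Transwell in either treatment, TFEB not after quantile normalization. TFE3 read 7.68 in plate vehicle, 7.54 in plate cholate, 7.46 in Transwell vehicle and 7.18 in Transwell cholate, lowest where both the insert and cholate were present. TFEB read 5.49, 5.38, 5.37 and 5.33 in the same order, within 0.2 log2 on all arrays and near the floor of 4.84, where RMA compresses differences. Their mean differences for support were -0.29 for TFE3 (limma adjusted p = 0.199) and -0.08 for TFEB (limma adjusted p = 0.614).

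The 10 autophagy genes were lower on Transwell in both pairs in 7 cases and higher in 2. Of the 7, BECN1, WIPI1 and ATG12 did not keep that direction under median centring. Among initiation and nucleation genes, UVRAG, a partner of beclin in the lipid kinase complex, read 9.74 and 9.77 on the plate in vehicle and cholate, and 9.33 and 9.43 on Transwell. ULK1, the kinase that starts autophagy, stood at -0.17 and -0.29. BECN1, which encodes beclin, stood at -0.06 and -0.01. WIPI1, which binds the phosphoinositide made by that complex, read 9.14 and 9.23 on the plate and 9.12 and 9.22 on Transwell, with no separation of the supports.

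Of the 3 genes of the conjugation systems, ATG5 and ATG7 were higher on Transwell in both pairs and ATG12 was lower. ATG5, which together with ATG12 forms the conjugate that directs ATG8 lipidation, read 9.23 and 9.13 on the plate in vehicle and cholate, and 9.31 and 9.33 on Transwell. ATG7, the activating enzyme of both conjugation systems, read 8.04 and 7.69 on the plate and 8.04 and 7.83 on Transwell, so its 2 vehicle values were alike. ATG12 stood at -0.11 and -0.04. The mean difference for support was 0.14 for ATG5 (limma SE 0.09, adjusted p = 0.417) and 0.07 for ATG7 (limma SE 0.09, adjusted p = 0.682), and the vehicle difference of ATG7 was below 0 after quantile normalization and cyclic loess.

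Among the ATG8 proteins, MAP1LC3B, which encodes LC3B, the usual marker of autophagosomes, read 7.39 in plate vehicle, 8.13 in plate cholate, 7.09 in Transwell vehicle and 7.18 in Transwell cholate. The plate cholate array stood apart from the other 3, and it sets the difference of -0.95 in cholate against -0.29 in vehicle. GABARAPL1, another ATG8 family gene, read 8.60 and 8.35 on the plate and 8.49 and 8.38 on Transwell. SQSTM1, the cargo receptor p62, read 10.71 and 10.46 on the plate and 10.58 and 10.42 on Transwell. In the last 2 genes plate and Transwell values overlapped. The probe set of MAP1LC3B may also bind RNA of MAP1LC3B2, a near-identical copy, which was not tested.

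Set beside the promoter sequences above, the 7 genes with TCACGTG had mean Transwell minus plate differences of -0.52 to -0.23 with a median of -0.33. The 20 genes with a promoter sequence and no match ranged from -0.63 to 0.14 with a median of -0.12. The 10 genes with no entry in the table ranged from -0.45 to -0.03. The ranges overlapped, with CTSL, MAP1LC3B and TPP1 the lowest of the genes without a match. The difference between the groups was not tested. The groups also differed in role: the 7 genes with a match are all lysosomal, while those without one include autophagy genes, TFEB and TFE3. Median differences over all members were -0.23 for lysosomal and -0.06 for autophagy genes. For cholate minus vehicle the medians of the genes with and without a match were 0.04 and -0.02.

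In cholate these genes showed no common direction. On both supports 17 of 37 were lower in cholate (34.7% of all genes) and 12 were higher (26.1%), with medians of -0.03 (plate) and -0.02 (Transwell), where all genes above the floor had -0.03 and -0.01. This split depended on the scaling: 21 were lower and 5 higher under median centring of the arrays, and 15 were lower and 15 higher after cyclic loess. Median centring also moved the median of all genes above the floor, to -0.10 on the plate and -0.06 on Transwell. Cyclic loess left it at -0.03 and -0.01. Shares of all genes under these scalings are not given here. On the plate 1 gene, MAP1LC3B, was at least 1.5-fold higher (1.49% of all genes) and 0 were as much lower (2.35%). On Transwell 0 were 1.5-fold higher (0.357%) or lower (0.736%). With limma 0 members passed over all probe sets, with a smallest adjusted p of 0.443, and 2 had an unadjusted p under 0.05, CTSL and ATG7, both lower (5.02% of all genes).

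**Figure D3:**
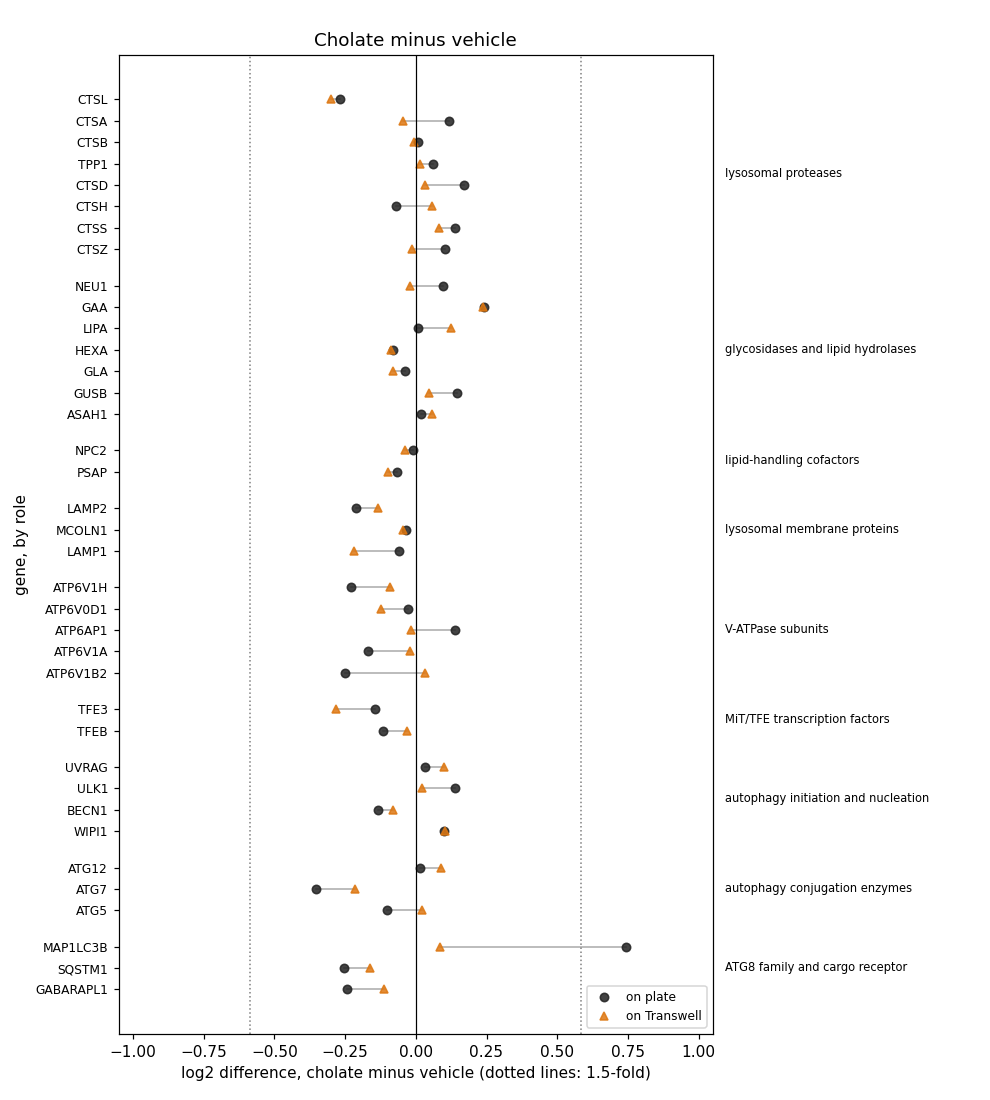
Log2 difference, cholate minus vehicle (horizontal axis), for each of the 37 genes (vertical axis, grouped by role), on the plate (circles) and on Transwell (triangles). Each point is a difference of 2 arrays, and dotted lines mark 1.5-fold. MAP1LC3B on the plate, at 0.74, is the single point beyond 1.5-fold.

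The largest response was that of MAP1LC3B on the plate, 0.74 log2 or 1.67-fold, beside 0.09 on Transwell. Its response was thus lower on Transwell by a difference of -0.66, the largest among the members, and with 1 pool per condition an unusual plate cholate pool cannot be told apart from a cholate response. Among other genes of ATG8 conjugation and cargo binding, GABARAPL1 stood at -0.24 on the plate and -0.11 on Transwell, SQSTM1 at -0.25 and -0.16, and ATG7 at -0.35 and -0.21. These 3 genes were lower in cholate on both supports, a direction shared by 34.7% of all genes above the floor. The conjugation gene ATG12 stood at 0.02 on the plate and 0.09 on Transwell, and ATG5 at -0.10 and 0.02. The mean differences were -0.21 for SQSTM1 (limma SE 0.09, adjusted p = 0.505) and -0.28 for ATG7 (limma SE 0.09, adjusted p = 0.452).

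CTSL was lower in cholate on both supports, by -0.27 (plate) and -0.30 (Transwell), with a mean of -0.28 (limma SE 0.09, adjusted p = 0.443), the same as that of ATG7 to 2 decimals. After quantile normalization the means were -0.26 for CTSL and -0.29 for ATG7. TFE3 stood at -0.15 and -0.28, with a mean of -0.21 (limma adjusted p = 0.509). The 3 membrane protein genes were all lower in cholate on both supports, LAMP2 by -0.21 and -0.13, LAMP1 by -0.06 and -0.22 and MCOLN1 by -0.04 on each. Under the V-ATPase genes, ATP6V1B2 differed most between supports, at -0.25 on the plate and 0.03 on Transwell, and ATP6V1H stood at -0.23 and -0.09.

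GAA was higher in cholate on both supports, by 0.24 on each, with a mean of 0.24 (limma SE 0.09, adjusted p = 0.464). WIPI1 stood at 0.10 on each support and CTSS at 0.14 and 0.08. CTSB had responses of 0.01 and -0.01. CTSA stood at 0.12 on the plate and -0.04 on Transwell, and CTSD at 0.17 and 0.03.

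Beyond the 37 genes, 160 of 173 other listed genes of the same pathways were measured, 151 of them above the floor. Of the 160, 78 were lower and 44 higher on Transwell in both pairs of arrays (33.2% and 39.5% of all genes above the floor), with medians of -0.06 in each treatment, and 0 passed limma over all probe sets for support or for cholate. Of the other hydrolases, 32 were measured, and 19 were lower and 7 higher on Transwell in both pairs, with medians of -0.12 in vehicle and -0.18 in cholate. Lower by at least 0.32 log2 in both pairs were 7 of these 32 and 17 of the 160 (6.06% of all genes above the floor). As much higher were 0 of the 32 and 5 of the 160 (5.78%).

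**Figure D4:**
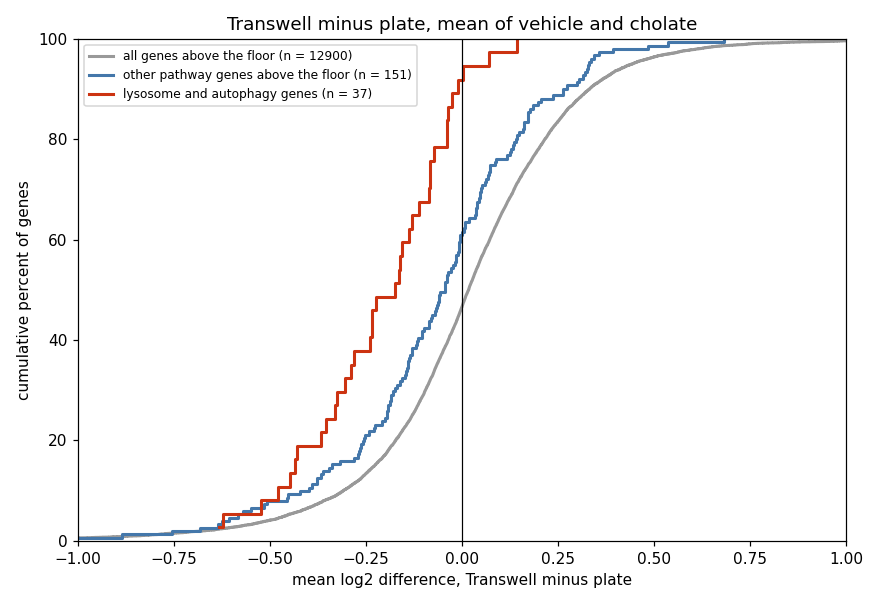
Cumulative percent of genes (vertical axis) against the mean log2 difference, Transwell minus plate, over vehicle and cholate (horizontal axis, shown from -1 to 1), for the 37 genes, for 151 other genes of the pathways above the floor and for 12900 genes above the floor. The curve of the 37 genes lies left of the others at most values, with a median of -0.18 against 0.02 for all genes.

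CTSV, a close paralogue of CTSL, read 10.66 and 10.52 on the plate in vehicle and cholate, and 10.09 and 9.83 on Transwell. Like CTSL it was lower on Transwell and, within each support, lower in cholate, and the extent to which the probe sets of these paralogues bind each other's RNA was not tested. The lysosomal phospholipase gene PLA2G15 read 8.46 and 8.45 on the plate and 7.92 and 7.79 on Transwell. The hydrolases furthest in the other direction for support were GGH, gamma-glutamyl hydrolase, with a mean difference of 0.33, and ARSA, arylsulfatase A, with 0.32. For cholate the lowest were CTSC, cathepsin C, with a mean of -0.36, and PPT1, a palmitoyl thioesterase, with -0.29.

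Other membrane proteins were divided, with 11 of 21 lower and 6 higher on Transwell in both pairs (33.2% and 39.5% of all genes above the floor). Above the floor lay 19 of the 21. LAMP3, a relative of LAMP1 whose expression is inducible and restricted to some tissues, read 6.65 in plate vehicle, 6.20 in plate cholate, 5.63 in Transwell vehicle and 4.86 in Transwell cholate. It was lower on the inserts and lower in cholate, with means of -1.19 for support and -0.61 for cholate. Its Transwell cholate value lay next to the floor of 4.84, where RMA compresses differences. LAPTM4B, a transmembrane protein of late endosomes, was the highest for support, with a mean of 0.68.

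Of the other V-ATPase genes 8 of 17 were lower and 5 higher on Transwell in both pairs (33.2% and 39.5% of all genes above the floor). In cholate 11 were lower on both supports and 4 higher on both (34.7% and 26.1%). Above the floor lay 15 of the 17. ATP6V1B1, the B subunit found in specialised acid-secreting cells, read 8.86 in plate vehicle, 7.76 in plate cholate, 8.05 in Transwell vehicle and 7.54 in Transwell cholate. Its mean of -0.80 for cholate was the lowest of that list, beside -0.11 for ATP6V1B2 of the same subunit. The intensity of the 2 probe sets cannot be set against each other.

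A list for the control of mTORC1 and TFEB at the lysosome also held mTORC1 subunits and relatives of TFEB. Of its 23 measured genes 15 were lower and 5 higher on Transwell in both pairs (33.2% and 39.5% of all genes above the floor). MITF, a transcription factor of the same family as TFEB and TFE3, read 6.75 and 6.53 on the plate in vehicle and cholate. On Transwell it read 6.12 and 5.91, a mean difference of -0.62, which was not the lowest of that list. For cholate its mean of -0.22 was the lowest. DDIT4, an inhibitor of mTORC1 signalling, had its highest value on the plate cholate array, 10.47, against 8.85 to 9.28 on the other 3 arrays. Its means were the lowest of that list for support, -0.89, and the highest for cholate, 0.74. LAMTOR5, a subunit of the scaffold that holds mTORC1 at the lysosome, was highest for support in that list, with a mean of 0.26.

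Autophagy genes outside the members were divided between lower and higher on Transwell. Beside the counts that follow, 33.2% of all genes above the floor were lower in both pairs and 39.5% higher. Of 13 other conjugation and ATG8 genes 1 was lower and 5 were higher in both pairs, with ATG16L1, which joins the ATG12 and ATG5 conjugate, at a mean of 0.48, and MAP1LC3C at -0.34. Of 21 other initiation genes 8 were lower and 6 higher, from ATG9B, a lipid scramblase gene, at -0.36 to WDR45B, a relative of WIPI1, at 0.24. Cargo receptors were split evenly, with 5 lower and 5 higher of 12. Of 12 fusion genes 7 were lower and 2 higher, with VPS11, a core subunit of the tethering complexes, at -0.40 and the SNARE gene YKT6 at 0.39. Genes that sort enzymes to the lysosome were 4 lower and 3 higher of 9, with IGF2R, the large mannose 6-phosphate receptor, at -0.20 and GGA1, a sorting adaptor, at 0.33.

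CD68, a glycoprotein of the LAMP family that also serves as a macrophage marker, was in the leukocyte list and read 9.04 and 9.45 on the plate in vehicle and cholate, and 8.71 and 8.81 on Transwell. That list as a whole had 3 of 11 genes lower and 4 higher on Transwell in both pairs (33.2% and 39.5% of all genes above the floor). Its medians were 0.07 in vehicle and -0.01 in cholate. Epithelial markers were likewise divided, 6 lower and 5 higher of 14. CDX2, an intestinal transcription factor, read 8.68 and 8.92 on the plate in vehicle and cholate, and 9.68 and 9.48 on Transwell. GPA33, an intestinal cell surface antigen, read 7.75 and 8.01 on the plate and 8.99 and 9.19 on Transwell. The apolipoprotein gene APOA1 went the other way, from 12.09 and 12.26 on the plate to 11.52 and 11.47 on Transwell.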

How the data were processed

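RNA was measured on 4 arrays, 1 for each combination of growth support and treatment. The authors deposited 1 log2 intensity for each probe set and array, and the submitters' processing notes name RMA. The software that ran it was not given in the sources used here. Probe sets were named from the platform annotation, whose gene numbers were looked up in a RefSeq table of GRCh38.p14. Of 33297 probe sets 19460 had 1 symbol, 1754 had several and 12083 had none listed. Differences were taken between arrays, counts used 1.5-fold and 0.32 log2, and limma 3.58.1 in R 4.3.3 (lmFit, eBayes, additive model, 2-sided, Benjamini-Hochberg over the 19978 probe sets at or above the 40th percentile) gave adjusted p-values. Its prior had 2.83 degrees of freedom. The test was checked on simulated data. All 37 genes are described. Values on every array are given for genes 1.5-fold apart in a comparison, for up to 4 highest and 4 lowest on both pairs of arrays, for the 4 whose responses differed most between supports, and for others chosen after their values were seen. Genes outside the members, apart from cell type markers and GLB1, were named from the highest and lowest of each list for support or for cholate. Not all of those are named. The members and lists were chosen with earlier results of these data known. Alternatives were other scalings, floors, folds, variance priors and probe set choices. The number of arrays limits the precision.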

Additional observations from a re-analysis of the deposited data

Results flagged for a closer look

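ATP6V1B2, a V-ATPase subunit, was lower on Transwell than on the plate in vehicle (-0.17 log2) and higher in cholate (0.12), a difference of 0.28 between the treatments. It was singled out because the 2 pairs of arrays went opposite ways by at least 0.1 log2 each. The difference was not tested, since each value rests on 1 array per condition.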

How the results depend on the processing

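The median differences of the 37 genes moved by less than 0.1 log2 under median centring, quantile normalization, cyclic loess, averaging of probe sets and restriction to genes above the floor, which removed none. Genes lower on Transwell in both pairs numbered 28 under median centring, 31 under quantile normalization and 33 under cyclic loess, and those higher numbered 3 (with WIPI1), 1 and 1 (without ATG7). Of the 32 lower as deposited, median centring kept 28, quantile normalization 31 and cyclic loess 32. Both Transwell arrays lay below both plate arrays in 22, 27 and 27 genes. Genes lower in cholate on both supports numbered 21, 15 and 15, and higher ones 5, 14 and 15. Shares of all genes under these scalings are not given here, so these counts cannot be set against all genes. Under the 3 scalings the Transwell minus plate medians of all genes above the floor lay between -0.01 and 0.06. Counts at 1.5-fold depended on the fold. At 0.32 log2 10 genes differed between supports in vehicle, 11 in cholate, and 2 between treatments on the plate. At 2-fold 0 did in each. The shares of all genes at these 2 folds in single pairs of arrays are not given here. Cyclic loess gave 4 genes at 1.5-fold between supports in cholate. For support, limma called 2 genes with an intensity trend and 6 with 1 probe set per gene, against 0 under the other settings, where the smallest adjusted p ran from 0.0679 to 0.202. For cholate it called 0 under all settings, with smallest adjusted p from 0.303 to 0.558. Arrays could not be paired by replicate number, since each condition had 1 array. The additive limma model itself compares the supports within each treatment. No array was left out, since that would leave no residual degree of freedom.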

Other observations

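Over the 37 genes, the closest arrays were Transwell vehicle and Transwell cholate (r of 0.997, against 0.995 over all genes above the floor), and the least alike were plate cholate and Transwell vehicle (0.986 and 0.978). These are correlations across genes, which are not independent replicates. The highest of the 4 values lay on plate vehicle for 18 genes and on plate cholate for 17. The lowest lay on Transwell cholate for 19 and on Transwell vehicle for 13. The highest and lowest arrays were not counted over all genes, so these counts have nothing to be set against.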
